A study of Cucumis sativus with 9 samples.

Results

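Fatty acid desaturases and class 3 lipases were examined in leaves of cucumber (Cucumis sativus) seedlings held at 42 °C. The genes were taken by their deposited descriptions alone: every gene annotated with a fatty acid desaturase domain of the Pfam database, PF00487 or PF03405, or with the class 3 lipase domain, PF01764. They numbered 58 of the 24880 genes in the tables, and consisted of 21 desaturases (18 with PF00487 and 3 with PF03405) and 37 class 3 lipases. No gene carried both a desaturase and a lipase domain.

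Desaturases put double bonds into the acyl chains of fatty acids, and the number of double bonds in its lipids sets how fluid a membrane is at a given temperature. The soluble acyl-ACP desaturases of the plastid (PF03405) make the first double bond while the chain is still bound to acyl carrier protein. Many membrane desaturases (PF00487) of the plastid envelope and the endoplasmic reticulum add further ones to lipids already built. Many class 3 lipases are serine hydrolases that release acyl chains from glycerolipids. In Arabidopsis they include DAD1, which frees the precursor of jasmonate from plastid lipids. The defence regulators EDS1 and PAD4 carry the lipase domain too. None of the 37 lipases here also carried PF18117, the domain used to sort EDS1-type lipases.

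The seedlings were 3 weeks old, of the 'Chinese long' inbred line 9930, and had been grown at 25 °C by day and 18 °C by night with 16 h of light and 8 h of dark. Leaves were collected before heat (HT0h) and after 3 h (HT3h) and 6 h (HT6h) at 42 °C, with 3 RNA-seq libraries per time that the methods call biological replicates. Unheated leaves sampled at the later hours were not analysed here, and an effect of heat cannot be told apart from one of the hour of sampling. The authors set HT3h_2 and HT6h_2 aside for poor uniformity, and the tests below were fitted on the other 7 libraries, with all 9 as an alternative.

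Levels are given in FPKM, the fragments on a gene scaled by its length and by the depth of the library, as deposited. The libraries held 19040644 to 19596994 fragments on genes in HT0h, 18972139 to 22942239 in HT3h and 18996991 to 22598046 in HT6h. Within a group, Pearson's r of log-scale levels across genes was 0.989 to 0.990 in HT0h, 0.956 to 0.976 in HT3h and 0.954 to 0.982 in HT6h. As a check of the labels, 19 of 27 tested small heat shock protein genes (Hsp20 domain) were called higher at 3 h and 15 at 6 h, and none lower. The 20 chlorophyll a/b-binding genes and 1 gene of the small subunit of Rubisco, which mark photosynthetic tissue, were all detected. Their detection cannot tell leaf from other green tissue.

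Differences were tested with limma on log2(FPKM + 0.1), with Benjamini-Hochberg adjustment over all 19416 genes whose mean over the 7 libraries was at least 0.1 FPKM. To be called, a gene needed an adjusted p no higher than 0.05 together with a log2 fold change of at least 1 in either direction. Of the 58 members, 46 could be tested: 16 of 21 desaturases and 30 of 37 lipases. The other 12 were scarcely expressed in these leaves, with 4 desaturases and 5 lipases listed at 0 in all 9 libraries and the remaining 1 desaturase and 2 lipases at no more than 0.0709 and 0.237 FPKM.

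Every desaturase called at 3 h or 6 h was lower in heated leaves, and none was called higher at either time in the 7 libraries or in all 9. At 3 h, 6 of the 16 tested desaturases fell, against 8.29% of all tested genes called lower and 10.0% called higher in that comparison. At 6 h, 7 of the 16 fell, against 10.0% called lower and 12.2% called higher of all genes. Of the fallen genes, 4 at 3 h and 4 at 6 h were neighbours on chromosome 4. That group, described below, held 6 of the 16 tested genes. The median log2 fold change of the 16 was -0.71 at 3 h and -1.24 at 6 h, beside medians of -0.02 and -0.00 over all genes tested. With single libraries left out, the fewest that fell were 3 at 3 h (without HT3h_1) and 4 at 6 h (without HT0h_1, HT0h_3 or HT6h_3). A single desaturase, the acyl-ACP desaturase CsaV3_6G030990, was called higher under another setting: without HT0h_3 at both times (log2 fold change 1.78 and 1.19, limma adjusted p = 0.0136 and 0.0369) and with limma voom on fragments at 3 h (1.43, limma adjusted p = 0.0385). In all, 10 desaturases fell at one time or the other, 3 of them at both times, 3 at 3 h alone and 4 at 6 h alone; whether the fall differed between the times was tested separately and is given further on.

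The class 3 lipases moved in both directions. At 3 h, 1 of 30 rose and 1 fell, and at 6 h 4 rose and 2 fell, shares near or under those of all genes. Their median log2 fold change was -0.06 at 3 h and -0.21 at 6 h. The lipase calls rested on few libraries, with 1 left at 3 h without HT0h_1, HT0h_2 or HT3h_1, and at 6 h 0 left without HT0h_2 and 3 without HT6h_1 or HT6h_3. Calls over all genes split into 2377 higher and 1951 lower at 6 h, against 3087 and 1394 when values were scaled per counted fragment, a scaling that moved the median of all genes to 0.19. Under it 6 lipases rose and 0 fell at 6 h, while the desaturase counts of 6 and 7, all lower, were as before. A single lipase rose at both times, 3 rose at 6 h alone, 1 fell at 3 h alone and 2 fell at 6 h alone.

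With all 9 libraries, the desaturase counts were again 6 fallen at 3 h and 7 at 6 h with none called higher, where 9.57% and 10.1% of 19468 tested genes were called lower and 10.9% and 12.3% higher. The chromosome 4 group held 5 of those fallen at 3 h and 3 of those at 6 h. The lipase counts were 2 higher and 3 lower at 3 h and 2 higher and 2 lower at 6 h. All 3 HT3h libraries lay below all 3 HT0h libraries for 8 desaturases and 6 lipases, against 25.3% of all genes, and above them for 1 desaturase and 5 lipases, against 26.0%. All 3 HT6h libraries lay below HT0h for 12 desaturases and 9 lipases, against 27.0% of all genes, and above for 0 desaturases and 8 lipases, against 27.1%.

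**Figure D1:**
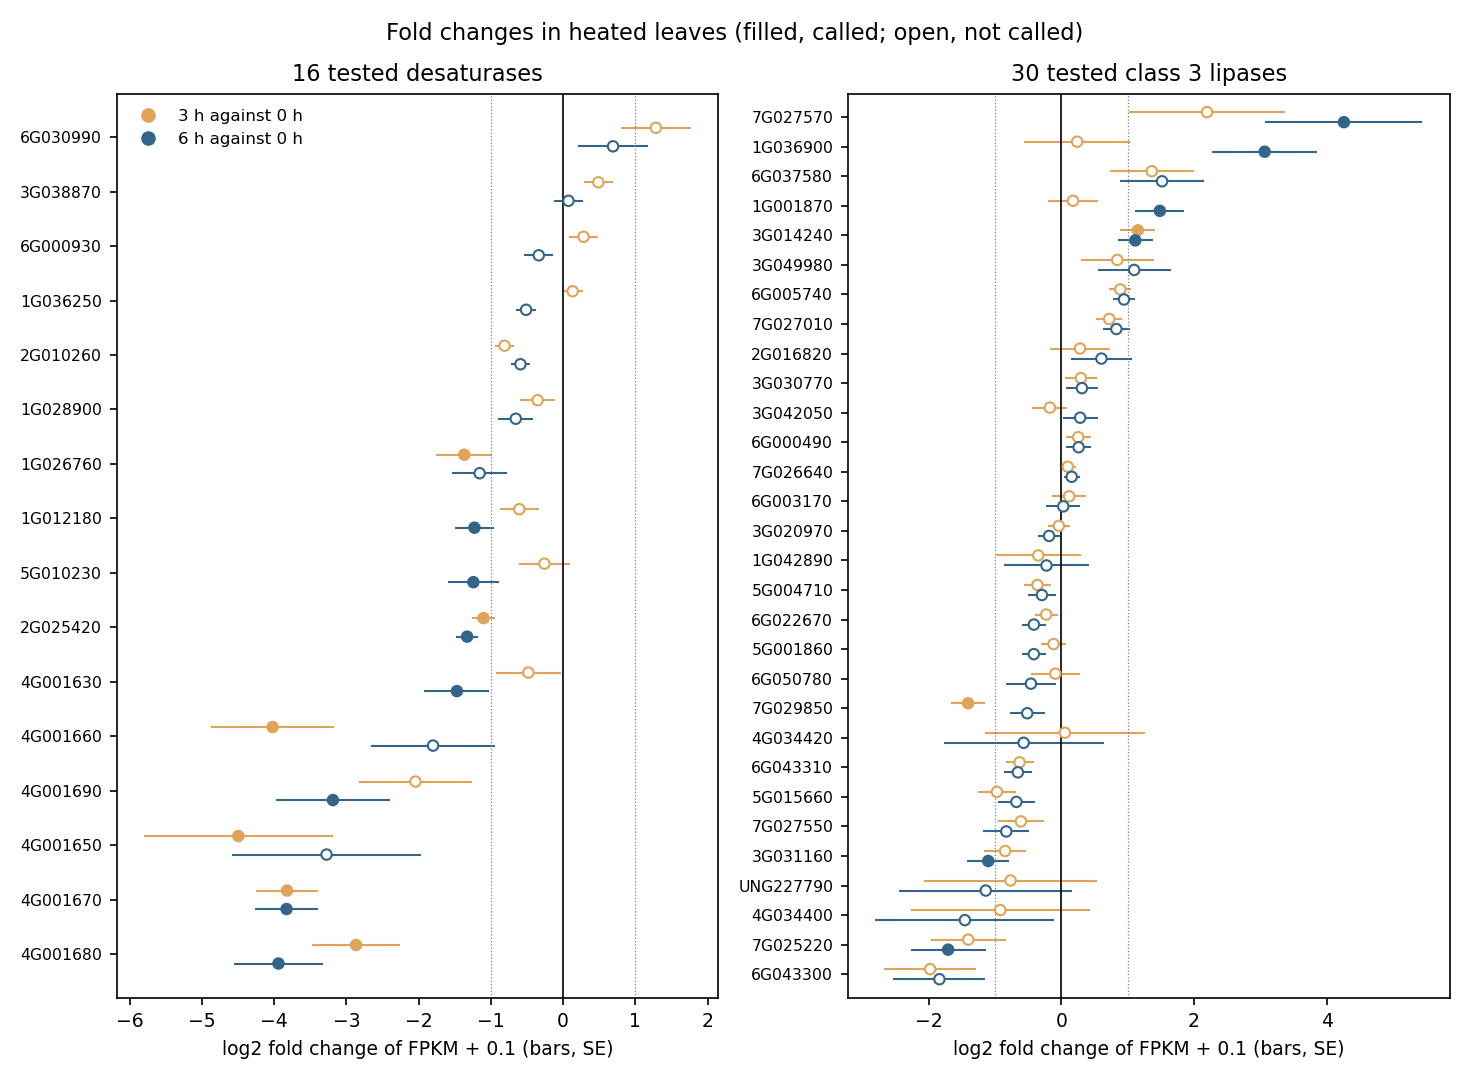
Log2 fold change of FPKM + 0.1 (x axis; bars, SE) of the 16 tested desaturases (left) and 30 tested class 3 lipases (right) at 3 h and 6 h against 0 h in the 7 libraries, with gene names given without CsaV3_; filled points were called and open ones were not, and dotted lines mark a log2 fold change of 1. The desaturases reach down to -4.49 with no filled point to the right of 0, whereas filled lipase points lie on both sides.

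Summed over the family, desaturase levels were 1149.8, 1141 and 1207 FPKM in HT0h, 1019, 924 and 742 FPKM in HT3h and 621, 574 and 568 FPKM in HT6h, so that the 3 groups did not overlap. At 3 h the lower sum was not shared by every class. The 7 chromosome 4 neighbours had a mean sum of 370 FPKM in HT0h and 98.9 FPKM in HT3h. For the acyl-ACP desaturases it was 178 and 87.5 FPKM. For the 4 membrane desaturases with PF11960 it was 453 and 552 FPKM, and for the 7 other desaturases 165 and 156 FPKM. In these last classes the HT3h libraries overlapped HT0h. The class 3 lipases together gave 219, 212 and 211 FPKM in HT0h, 223, 277 and 263 FPKM in HT3h and 260.2, 198 and 369 FPKM in HT6h. The lipase sum at 6 h overlapped that of HT0h, and 149.7 FPKM of its highest value, in HT6h_3, came from a single gene, CsaV3_7G027570. These are relative levels in a mixed tissue, in which fewer cells of a type and less RNA per cell cannot be told apart.

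The make-up of the desaturase pool differed as well. A group of 7 neighbouring genes on chromosome 4 held 11.3% ± 3.0 of the summed desaturase FPKM in HT3h and 11.0% ± 1.8 in HT6h, against 31.8% ± 3.8 in HT0h (SD, n = 3 libraries each). The 4 membrane desaturases that also carry the PF11960 domain, which is found in plant omega-6 and omega-3 desaturases, held 61.6% ± 2.6 in HT3h and 55.3% ± 5.5 in HT6h, against 38.8% ± 2.2 in HT0h. Their summed level was 417 to 487 FPKM in HT0h, 438 to 625 FPKM in HT3h and 281 to 368 FPKM in HT6h. At 6 h the larger share thus went with a lower sum. The acyl-ACP desaturases held 9.82% ± 0.54 in HT3h and 12.6% ± 0.82 in HT6h, against 15.3% ± 0.20 in HT0h. For each of these 3 classes all heated libraries lay on one side of all HT0h libraries, and no test was made on the shares.

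**Figure D2:**
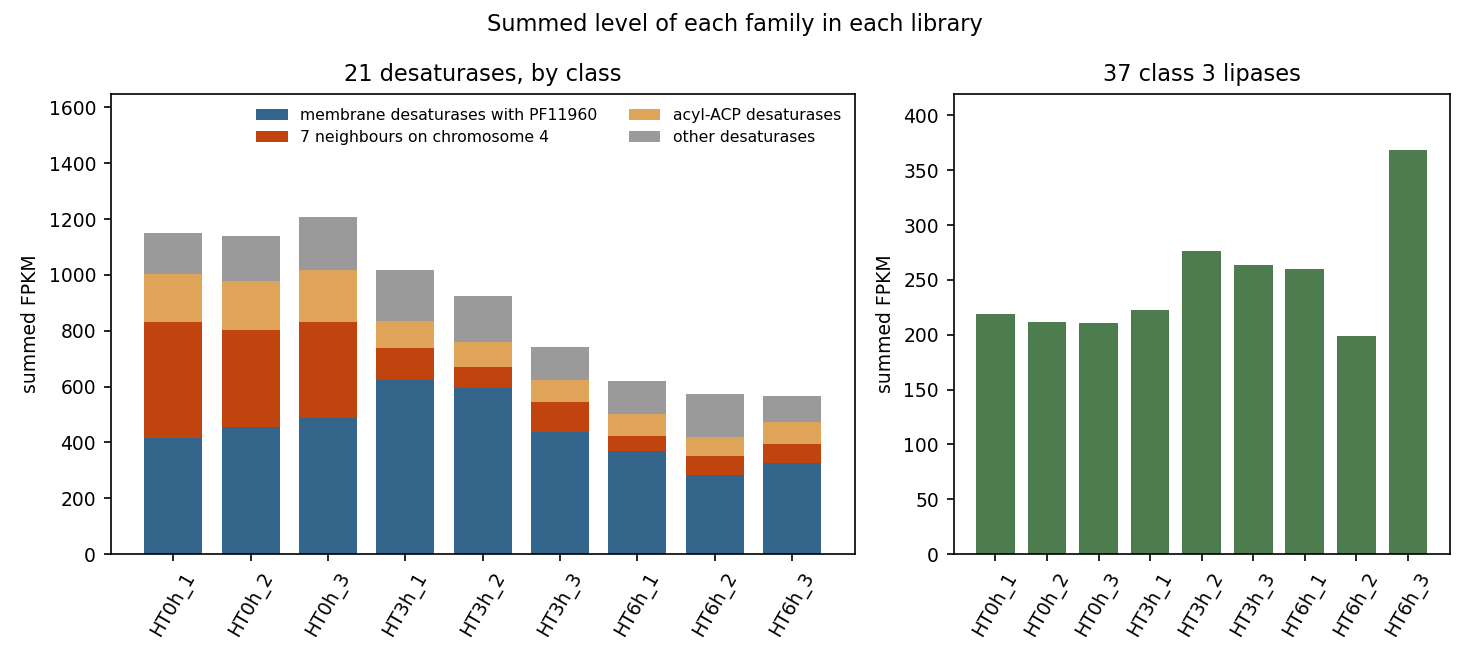
Summed FPKM (y axis, from 0) in each of the 9 libraries (x axis) for the 21 desaturases, stacked by class (left), and for the 37 class 3 lipases (right). The desaturase sum is 568 to 621 FPKM in HT6h against 1141 to 1207 FPKM in HT0h, and the part of the 7 chromosome 4 genes shrinks in every heated library, while the lipase sum of HT6h spans that of HT0h.

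Markers of cell types moved with the same comparisons. The summed level of the 21 leaf genes (chlorophyll a/b-binding proteins and Rubisco small subunit) was 70484 to 79926 FPKM in HT0h, 29453 to 88181 FPKM in HT3h and 21092 to 48555 FPKM in HT6h, lowest within its group in HT3h_3 and in HT6h_3, and 9 of the 21 were called lower at 6 h but only 1 at 3 h. All of these calls were chlorophyll a/b-binding genes. The Rubisco small subunit was not called, with log2 fold changes of -0.28 at 3 h and -0.07 at 6 h. Over all 9 libraries its values were -0.08 and 0.20. The core histones, which mark dividing cells, summed to 8337 to 9033 FPKM in HT0h, 1725 to 1901 FPKM in HT3h and 1673 to 1716 FPKM in HT6h, with 15 of 23 tested genes called lower at 3 h and 16 at 6 h. A single histone gene was called higher at 3 h and none at 6 h. Phloem protein 2 genes summed to 193 to 253 FPKM in HT0h, 269 to 428 FPKM in HT3h and 354 to 521 FPKM in HT6h, and oleosins, which mark seed oil bodies, were at 9.06 to 20.3 FPKM in all 9 libraries. Of 28 tested phloem genes, 4 were called higher and 1 lower at 3 h, and 10 higher and 0 lower at 6 h. Beside these counts, 8.29% of all genes were called lower and 10.0% higher at 3 h. At 6 h the shares were 10.0% lower and 12.2% higher. Of these lists, 3 histones, 2 oleosins and 1 phloem gene were at 0 in every library. The part of these cell types in the desaturase and lipase values was not tested.

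The largest falls lay in 1 stretch of chromosome 4. The genes CsaV3_4G001630 to CsaV3_4G001690 follow each other from base 921985 to base 973821 in the deposited coordinates (cucumber 9930 genome, version 3.0), 51.8 kb in all, with no gene model of another kind between them. All 7 carry PF00487 and none of the other domains used here to sort desaturases. Genes with this domain alone include, in Arabidopsis, the ADS desaturases, some of which act on acyl chains bound to coenzyme A. The substrate of the 7 genes was not tested. Of the 6 that could be tested, 4 fell at 3 h and 4 at 6 h, with a median log2 fold change of -3.34 and -3.23. Of the 10 gene models on either side of the group, 17 in all could be tested, and 3 were called lower and 3 higher at 3 h and 3 lower and 4 higher at 6 h, with medians of -0.38 and -0.31. Among all genes, 8.29% were called lower and 10.0% higher at 3 h, and 10.0% lower and 12.2% higher at 6 h.

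CsaV3_4G001680, the most abundant of the group before heat, had 265, 199 and 206 FPKM in HT0h, 15.9, 2.56 and 57.6 FPKM in HT3h_1 to HT3h_3, and 8.12, 3.97 and 25.3 FPKM in HT6h_1 to HT6h_3. Every heated library lay below every HT0h library, and in both heated groups the third library held the most. It fell at both times, by 2.87 on the log2 scale at 3 h (SE 0.61, limma adjusted p = 0.0123) and by 3.94 at 6 h (limma adjusted p = 0.00313). The 3 h call was lost without HT3h_1 (-1.94, limma adjusted p = 0.0543), and over all 9 libraries it was kept at -4.04.

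CsaV3_4G001670, whose end lies 150 bases from that of CsaV3_4G001680 on the opposite strand, was nearly silent in heated leaves. It had 1.51, 1.55 and 1.60 FPKM in HT0h and was at 0 in HT3h_1, HT3h_2, HT6h_1 and HT6h_2, with 0.0370 FPKM in HT3h_3 and 0.0358 FPKM in HT6h_3. In the 7 libraries this was 1 fragment in HT3h and 1 in HT6h, against 110 in HT0h. The ratio of scaled fragments was 0.0123 at 3 h (exact 95% interval 0.000309 to 0.0700) and 0.0120 at 6 h (0.000302 to 0.0684), where the intervals cover counting error only. The fitted log2 fold changes of -3.82 and -3.83 (SE 0.43 each, limma adjusted p = 0.00126 and 0.00102) depend on the added 0.1 FPKM, and both calls held under each of the 19 alternatives that could test the gene.

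CsaV3_4G001650 had 60.6, 35.3 and 37.7 FPKM in HT0h, 0.344, 0.0768 and 8.22 FPKM in HT3h, and 1.36, 3.02 and 13.6 FPKM in HT6h. The groups did not overlap, yet the heated libraries differed widely among themselves, with the highest value in the third library each time. The log2 fold change of -4.49 at 3 h was called (SE 1.31, limma adjusted p = 0.0368), and that of -3.27 at 6 h was not (SE 1.31, limma adjusted p = 0.0879). The 3 h call was lost without HT3h_1 or without any 1 of the 3 HT0h libraries (-4.64 to -2.38, limma adjusted p = 0.0811 to 0.169).

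CsaV3_4G001660 had 15.4, 13.4 and 11.1 FPKM in HT0h, 0.238, 0.165 and 1.88 FPKM in HT3h, and 1.62, 1.47 and 8.33 FPKM in HT6h. Here too the third heated library was the highest and no heated library reached HT0h. The fall at 3 h was called (log2 fold change -4.02, SE 0.86, limma adjusted p = 0.0121), although not without HT3h_1 (-2.74, limma adjusted p = 0.0525), and the value at 6 h was not called (-1.80, SE 0.86, limma adjusted p = 0.138).

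CsaV3_4G001690 was expressed at a low level, with 1.99, 1.03 and 2.59 FPKM in HT0h, 0.10, 0 and 0.910 FPKM in HT3h, and 0.0331, 0.0574 and 0.212 FPKM in HT6h. All heated libraries were below all HT0h libraries. It fell at 6 h (log2 fold change -3.19, SE 0.79, limma adjusted p = 0.0181) and was not called at 3 h (-2.04, limma adjusted p = 0.0869). The 6 h call was lost without HT0h_1, HT0h_3 or HT6h_1 (-3.10 to -2.57, limma adjusted p = 0.0557 to 0.114), and at 3 h the call was made without HT3h_3 (-3.21, limma adjusted p = 0.0235) and over all 9 libraries (-2.77, limma adjusted p = 0.0295).

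CsaV3_4G001630, at one end of the group, behaved apart from its neighbours. It had 69.3, 99.6 and 86.8 FPKM in HT0h, 96.2, 74.6 and 37.9 FPKM in HT3h, and 44.5, 60.5 and 20.7 FPKM in HT6h. HT3h overlapped HT0h, and HT6h lay below it. The value at 3 h was not called (log2 fold change -0.48), and the fall at 6 h (-1.47, SE 0.45, limma adjusted p = 0.0390) was lost without HT6h_3 or any 1 of the HT0h libraries (-1.61 to -0.92, limma adjusted p = 0.0634 to 0.233) and over all 9 libraries (-1.14, limma adjusted p = 0.0679). The remaining gene, CsaV3_4G001640, had 3 fragments over the HT0h libraries and 0 in all heated ones, too few to compare.

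The 7 genes are neighbours of one family, so fragments from like stretches may have been assigned to the wrong copy, and levels of single members are uncertain to that degree. By position, CsaV3_4G001660 and CsaV3_4G001690 each span 2 genes of the RefSeq annotation of the same assembly. Summed over the group, which depends less on how fragments were divided within it, the level was 413, 349.6 and 346 FPKM in HT0h, 113, 77.4 and 106 FPKM in HT3h, and 55.6, 69.0 and 68.2 FPKM in HT6h. All heated libraries lay far below HT0h in this sum and differed from each other less than they did for most single members. In HT3h_3 and HT6h_3, where 5 of the genes were highest among the heated libraries, CsaV3_4G001630 was lowest.

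**Figure D3:**
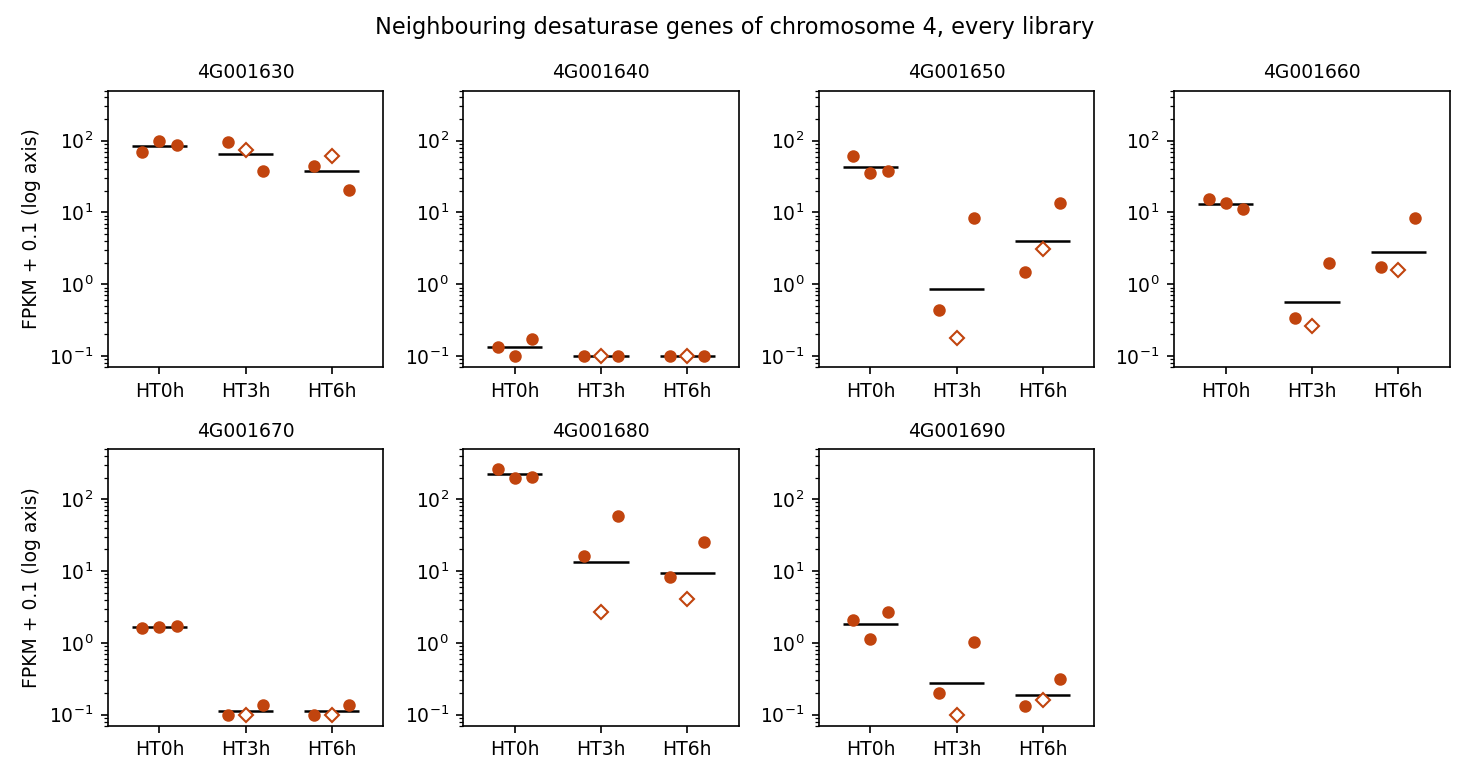
Level of the 7 neighbouring desaturase genes of chromosome 4, in order of position, as FPKM + 0.1 on a shared log axis, in HT0h, HT3h and HT6h. Points are libraries, open diamonds are HT3h_2 and HT6h_2, which the main test left out, and lines are geometric means of all 3 libraries; CsaV3_4G001680 has 2.56 to 57.6 FPKM in HT3h against 199 to 265 FPKM in HT0h, while CsaV3_4G001630 in HT3h overlaps HT0h.

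The membrane desaturases with PF11960 gave the highest class sum in every heated library, and 1 of the 3 that could be tested was called. CsaV3_3G038870, the desaturase with the highest mean over the 9 libraries, had 187, 192 and 204 FPKM in HT0h, 329, 385 and 226 FPKM in HT3h, and 208, 133 and 201 FPKM in HT6h. All 3 HT3h libraries were above HT0h and HT6h overlapped it. Neither difference was called (log2 fold change 0.49, SE 0.20, limma adjusted p = 0.101 at 3 h; 0.07, limma adjusted p = 0.792 at 6 h).

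CsaV3_5G010230 lies at the position of the RefSeq gene named FAD7, the plastid omega-3 desaturase that in Arabidopsis makes trienoic fatty acids of chloroplast lipids. It had 127, 149 and 156 FPKM in HT0h, 177, 114 and 81.0 FPKM in HT3h, and 78.7, 98.4 and 46.6 FPKM in HT6h. HT3h spread to both sides of HT0h, whereas HT6h lay wholly below. The level fell at 6 h (log2 fold change -1.24, SE 0.36, limma adjusted p = 0.0310) and was not called at 3 h (-0.26, limma adjusted p = 0.611). The 6 h call was lost without HT6h_3 or any 1 of the HT0h libraries (-1.33 to -0.87, limma adjusted p = 0.0591 to 0.192) and was kept over all 9 (-1.01, limma adjusted p = 0.0420). Of the other PF11960 genes, 1 was not called at either time and CsaV3_4G023720 was listed at 0 in every library.

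CsaV3_1G012180 carries PF08557, the domain of sphingolipid delta-4 desaturases, which act on the long-chain base of sphingolipids. It had 16.1, 19.6 and 25.8 FPKM in HT0h, 14.7, 11.2 and 11.8 FPKM in HT3h, and 10.8, 11.2 and 6.77 FPKM in HT6h. Both heated groups were below HT0h in every library. The fall was called at 6 h (log2 fold change -1.23, SE 0.27, limma adjusted p = 0.0116; -0.90 and limma adjusted p = 0.0772 without HT6h_3) and not at 3 h (-0.61, limma adjusted p = 0.126). The only desaturase fused to a cytochrome b5 domain, the electron donor of such enzymes, was not called at either time.

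On chromosome 1 a second group of desaturases, CsaV3_1G026760 to CsaV3_1G026780, covers 47.2 kb, and 2 of its 3 genes were listed at 0 in all libraries. CsaV3_1G026760 had 5.71, 7.39 and 9.56 FPKM in HT0h, 3.63, 6.26 and 2.16 FPKM in HT3h, and 4.62, 2.99 and 2.30 FPKM in HT6h. HT3h_2 lay within HT0h and the other heated libraries below it. The fall at 3 h (log2 fold change -1.37, SE 0.38, limma adjusted p = 0.0329) was lost over all 9 libraries (-0.99, limma adjusted p = 0.0923) and without HT0h_2, HT0h_3 or HT3h_3 (-1.37 to -1.01, limma adjusted p = 0.0845 to 0.147). At 6 h the value of -1.15 narrowly missed the threshold (limma adjusted p = 0.0512) and passed it over all 9 libraries (-1.20, limma adjusted p = 0.0479).

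Of the 3 acyl-ACP desaturases, 1 fell at both times. CsaV3_2G025420, which made up most of this class, had 154, 157 and 168 FPKM in HT0h, 85.3, 78.6 and 64.7 FPKM in HT3h, and 63.6, 58.0 and 63.4 FPKM in HT6h. The libraries of each time lay close together and both heated groups were well below HT0h. Both falls were called, with a log2 fold change of -1.10 for 3 h (SE 0.15, limma adjusted p = 0.00260) and -1.33 for 6 h (limma adjusted p = 0.00108). The 6 h call held in all 20 alternatives, and the 3 h call in all but the fit without HT3h_3, where the fold change of -0.90 was under the threshold (limma adjusted p = 0.00722).

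CsaV3_2G010260, the second in level, had 18.6, 16.9 and 15.7 FPKM in HT0h, 9.39, 6.70 and 9.99 FPKM in HT3h, and 11.0, 8.80 and 11.6 FPKM in HT6h. Every heated library was below every HT0h library, but the log2 fold changes of -0.81 at 3 h and -0.59 at 6 h were under the threshold of 1 (limma adjusted p = 0.00512 and 0.0145). The third gene, CsaV3_6G030990, had 0.814, 0.759 and 2.40 FPKM in HT0h, 3.16, 1.81 and 2.75 FPKM in HT3h, and 1.86, 2.12 and 1.99 FPKM in HT6h. HT0h_3 lay within the heated libraries and the other HT0h libraries below them. Its log2 fold changes of 1.28 and 0.69, the highest among the 16 tested desaturases, were not called in the 7 libraries (limma adjusted p = 0.0834 and 0.300).

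**Figure D4:**
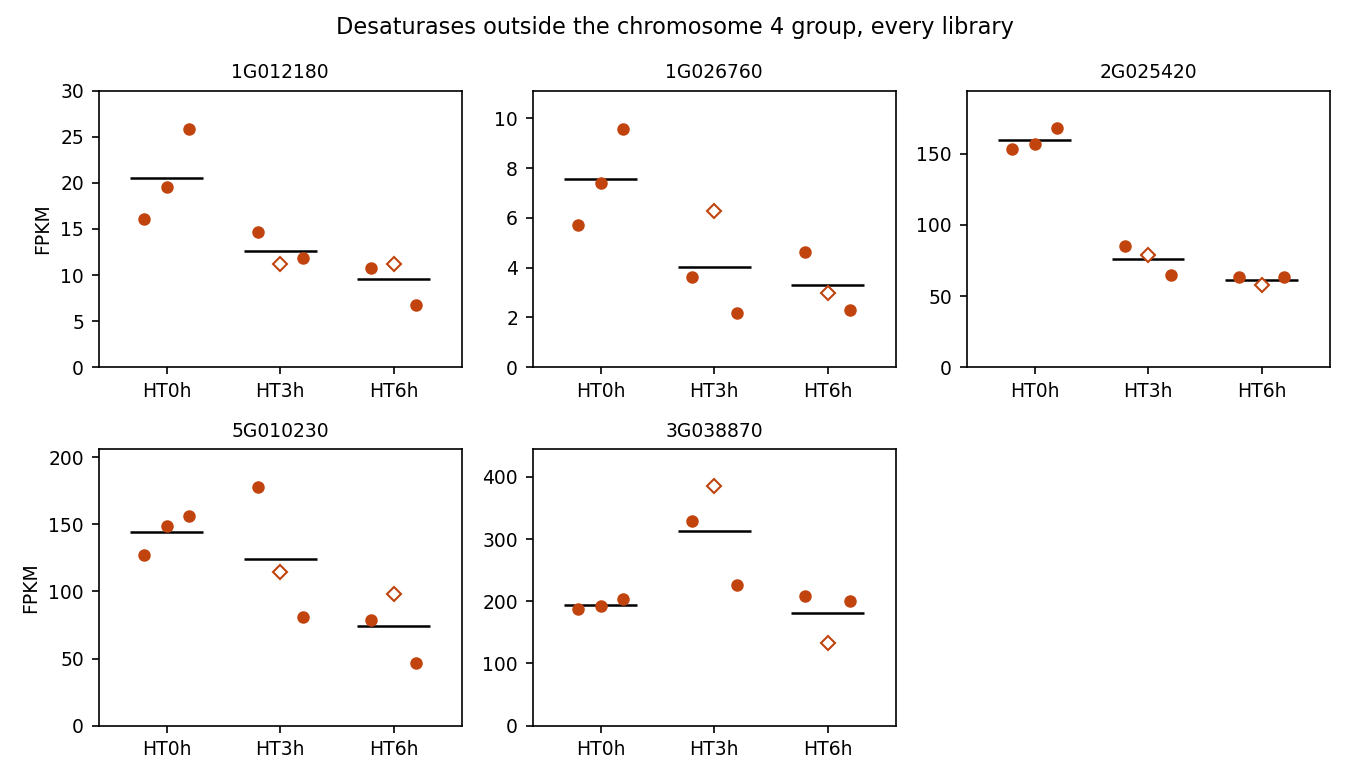
FPKM (y axis, from 0) of the called desaturases outside the chromosome 4 group and of CsaV3_3G038870, the one of highest mean level, in HT0h, HT3h and HT6h. Points are libraries, open diamonds are HT3h_2 and HT6h_2, and lines are means of 3 libraries; CsaV3_2G025420 has 58.0 to 85.3 FPKM in heated leaves against 154 to 168 FPKM in HT0h, and CsaV3_3G038870 is at 226 to 385 FPKM in HT3h against 187 to 204 FPKM in HT0h.

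The desaturases that were not called numbered 10 at 3 h and 9 at 6 h, with log2 fold changes of -2.04 to 1.28 and -3.27 to 0.69. Of these, 1 at 3 h and 2 at 6 h had an adjusted p of 0.05 or less in limma and missed only the fold threshold, whereas 2 and 3 passed the fold threshold alone. Positive values were found for 4 of the 10 at 3 h and 2 of the 9 at 6 h.

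Among the class 3 lipases, CsaV3_3G014240 was the one that rose at both times. It had 15.3, 13.8 and 25.6 FPKM in HT0h, 42.5, 49.6 and 36.0 FPKM in HT3h, and 35.5, 29.6 and 40.7 FPKM in HT6h. All heated libraries were above all HT0h libraries, of which HT0h_3 was the highest. Both rises were called, with log2 fold changes of 1.15 for 3 h and 1.11 for 6 h (SE 0.26 each, limma adjusted p = 0.0160 and 0.0158). The 3 h call was lost without HT0h_1, HT0h_2 or HT3h_1 (0.98 to 1.05, limma adjusted p = 0.0462 to 0.0772) and the 6 h call without HT0h_1, HT0h_2, HT6h_1 or HT6h_3 (0.94 to 1.21, limma adjusted p = 0.0454 to 0.0945) and over all 9 libraries (0.99, limma adjusted p = 0.0137). A gene model with little expression overlaps it on the other strand, and no source used here states whether strand was counted.

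CsaV3_7G027570 varied widely within each time. It had 16.9, 2.92 and 1.57 FPKM in HT0h, 7.03, 21.2 and 57.2 FPKM in HT3h, and 47.6, 2.80 and 149.7 FPKM in HT6h. The groups overlapped at both times, and libraries of the same time differed many-fold. It was called higher at 6 h in the 7 libraries (log2 fold change 4.26, SE 1.18, limma adjusted p = 0.0279), a call lost over all 9 libraries, where HT6h_2 is included (2.64, limma adjusted p = 0.181), and without HT0h_2, HT0h_3, HT6h_1 or HT6h_3 (3.44 to 5.08, limma adjusted p = 0.0671 to 0.163). At 3 h it was not called (2.20, limma adjusted p = 0.197).

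The other lipases that rose did so at 6 h from a low level. CsaV3_1G036900 had 0.593, 0.109 and 0.518 FPKM in HT0h, 0.495, 4.07 and 0.367 FPKM in HT3h, and 8.31, 2.05 and 1.57 FPKM in HT6h, with all of HT6h above HT0h and, among HT3h, HT3h_2 alone. Its log2 fold change at 6 h was 3.07 (SE 0.80, limma adjusted p = 0.0219; 1.90 to 2.52 and limma adjusted p = 0.0565 to 0.135 without HT0h_2 or HT6h_1). CsaV3_1G001870 had 0.413, 0.274 and 0.423 FPKM in HT0h, 0.388, 1.19 and 0.464 FPKM in HT3h, and 1.17, 1.79 and 1.23 FPKM in HT6h, again with all of HT6h above HT0h and HT3h_2 apart from the other HT3h libraries. Its log2 fold change at 6 h was 1.48 (SE 0.37, limma adjusted p = 0.0188; 1.33 to 1.51 and limma adjusted p = 0.0567 to 0.0758 without HT0h_2, HT6h_1 or HT6h_3). CsaV3_1G001870 overlaps another gene model on the opposite strand, which averaged 13.3 FPKM, so that without strand its few fragments cannot be told apart from those of its partner.

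Of the lipases that fell, CsaV3_7G029850 had 7.14, 6.84 and 5.63 FPKM in HT0h, 2.82, 5.97 and 2.02 FPKM in HT3h, and 5.46, 3.56 and 3.74 FPKM in HT6h. HT3h_2 lay within HT0h and the other HT3h libraries below it. The fall at 3 h (log2 fold change -1.41, SE 0.26, limma adjusted p = 0.00728) held without any 1 library of the 7 but not over all 9 (-0.98, limma adjusted p = 0.0727), and at 6 h the value was -0.52 (limma adjusted p = 0.162).

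CsaV3_3G031160 had 6.27, 8.80 and 9.37 FPKM in HT0h, 5.51, 5.29 and 3.53 FPKM in HT3h, and 4.77, 8.86 and 2.84 FPKM in HT6h. HT3h lay below HT0h and HT6h_2 lay within it. The fall at 6 h (log2 fold change -1.10, SE 0.32, limma adjusted p = 0.0325) was lost over all 9 libraries (-0.69, limma adjusted p = 0.197) and without HT0h_2, HT0h_3 or HT6h_3 (-1.04 to -0.74, limma adjusted p = 0.0937 to 0.185). CsaV3_7G025220, at 0.501 to 0.701 FPKM in HT0h, 0 to 0.168 FPKM in HT3h and 0.0198 to 0.253 FPKM in HT6h, was called at 6 h with little to spare (-1.71, SE 0.56, limma adjusted p = 0.0499). That call was lost in 15 of 19 alternatives, among them the fits without HT0h_1, HT0h_2, HT0h_3, HT3h_1, HT3h_3 or HT6h_1 (-1.79 to -0.93, limma adjusted p = 0.0582 to 0.223).

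CsaV3_6G043310, the lipase with the highest mean over the 9 libraries, was at 48.7, 56.2 and 55.6 FPKM in HT0h, 42.1, 51.0 and 28.1 FPKM in HT3h, and 39.2, 14.1 and 29.2 FPKM in HT6h. HT6h lay below HT0h and HT3h overlapped it. The log2 fold changes of -0.63 and -0.66 were under the threshold (limma adjusted p = 0.0567 and 0.0446), and over all 9 libraries the gene was called lower at 6 h (-1.08, limma adjusted p = 0.0425).

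**Figure D5:**
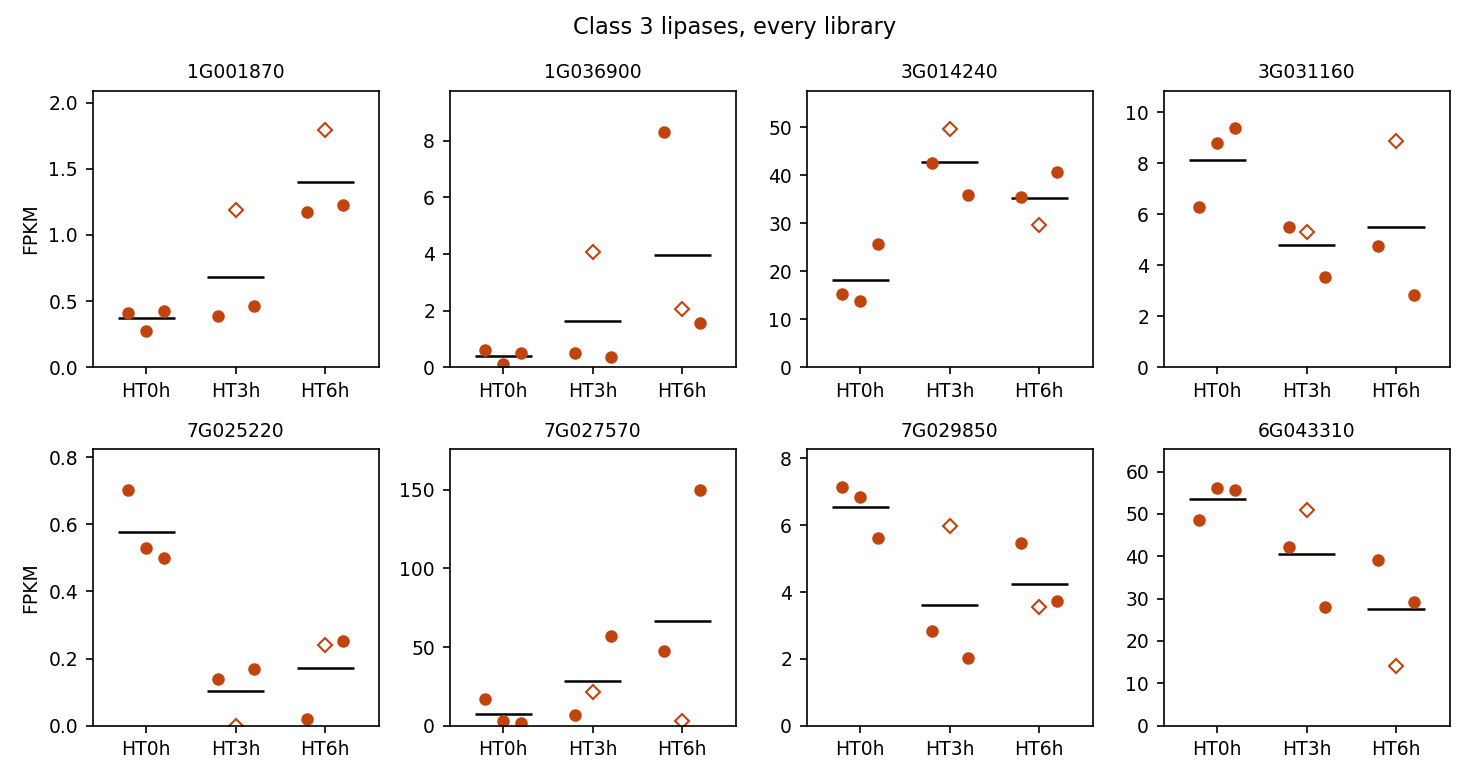
FPKM (y axis, from 0) of the 7 called class 3 lipases and of CsaV3_6G043310 in HT0h, HT3h and HT6h. Points are libraries, open diamonds are HT3h_2 and HT6h_2, and lines are means of 3 libraries; CsaV3_3G014240 has 29.6 to 49.6 FPKM in heated leaves against 13.8 to 25.6 FPKM in HT0h, and CsaV3_7G027570 spans 2.80 to 149.7 FPKM within HT6h.

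By class, none of the 5 lipases with the N-terminal lipase 3 region (PF03893) was called at either time, and their sum was 37.7 to 39.4 FPKM in HT0h, 37.1 to 49.4 FPKM in HT3h and 34.5 to 44.3 FPKM in HT6h. The single lipase with a C2 domain, which in other proteins binds membranes in the presence of calcium, was below HT0h in every heated library but was not called in the 7 libraries. This gene, CsaV3_5G015660, was called lower at 3 h over all 9 (log2 fold change -1.04, limma adjusted p = 0.0132). All lipases called in the 7 libraries were among the 24 tested genes with PF01764 alone. Of the lipases not called, 28 at 3 h and 24 at 6 h, log2 fold changes ranged from -1.98 to 2.20 and from -1.84 to 1.52, and 3 at each time passed limma's adjusted p threshold without the fold threshold. One of them, CsaV3_6G005740, picked after its values were seen, had 16.7, 15.5 and 12.2 FPKM in HT0h, 27.4, 39.2 and 27.2 FPKM in HT3h, and 26.2, 29.6 and 30.7 FPKM in HT6h. Its log2 fold changes were 0.89 and 0.94 (SE 0.17 each, limma adjusted p = 0.00737 and 0.00498), with no overlap between heated and HT0h libraries, and over all 9 libraries it was called higher at 3 h (1.06, limma adjusted p = 0.00311).

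Lipases also stood in groups of neighbours. On chromosome 4, 4 genes cover 28.1 kb, on chromosome 6, 3 genes cover 13.5 kb, and on chromosome 7, 3 genes, CsaV3_7G027570 among them, cover 31.1 kb. In each of these groups 1 or 2 genes were listed at or near 0 in all libraries, and CsaV3_7G027570 was the only one called in the 7 libraries. Over all 9 libraries, 1 of the 2 tested genes of the chromosome 6 group was called lower at 3 h and 2 at 6 h. None was then called in the groups of chromosomes 4 and 7. Of all genes, 9.57% were called lower at 3 h and 10.1% at 6 h in that fit. The 2 tested genes of the chromosome 4 group were highest in the third library of both heated times, at 3.46 and 5.01 FPKM in HT3h_3 and 2.21 and 8.54 FPKM in HT6h_3, against 0.152 to 1.46 FPKM in the other HT3h libraries and 0.0244 to 0.288 FPKM in the other HT6h libraries. Before heat the 2 genes had 258 and 292 fragments over the HT0h libraries, and both heated groups overlapped HT0h. Their median log2 fold change was -0.44 at 3 h and -1.01 at 6 h in the 7 libraries. Over all 9 libraries it was -1.21 and -2.05, and neither gene was called in either fit.

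Between the heated times, none of the 46 members was called in limma at 6 h against 3 h, where 0.0876% of all genes were called higher and 0.113% lower (0.175% and 0.200% over all 9 libraries). The lowest adjusted p was 0.170, and 7 members, or 15.2%, had an unadjusted p under 0.05, against 12.3% of all genes. That number was 6 with limma voom on fragments and 5 over all 9 libraries, and it ranged from 4 with only the groups compared to 13 without HT3h_3. A call at one time alone, as for CsaV3_5G010230 or CsaV3_1G036900, was therefore not shown to differ from the other time.

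Genes listed as feeding or using these enzymes were counted by Pfam domain alone. Which genes of the fatty acid synthesis list act in the synthesis that supplies the desaturases was not tested. Of 27 tested genes of fatty acid synthesis, 6 fell and 1 rose at 3 h, and 9 fell and 2 rose at 6 h, with median log2 fold changes of -0.80 and -0.77. Of all genes, 8.29% were called lower and 10.0% higher at 3 h, and 10.0% lower and 12.2% higher at 6 h. Over all 9 libraries 9 genes of the list fell at 3 h. Those that fell included 4 of 7 acyl carrier proteins at 6 h, the proteins that carry the substrate of the acyl-ACP desaturases, and at 3 h 2 of them, or 4 over all 9 libraries. CsaV3_6G005690, with the largest change among them at 6 h, had 201, 247 and 272 FPKM in HT0h, 58.6, 41.2 and 63.3 FPKM in HT3h, and 60.9, 29.6 and 57.8 FPKM in HT6h (log2 fold change -1.96 and -2.0, SE 0.16 each, limma adjusted p = 0.000439 and 0.000322). No acyl-ACP thioesterase, the enzyme that ends synthesis in the plastid, was called among 2 tested in the 7 libraries, and over all 9 libraries 1 was called higher at 6 h.

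Of 27 tested electron donors of desaturases, 5 fell and 2 rose at 3 h and 6 fell and 2 rose at 6 h, with medians of -0.15 and -0.13, beside the same shares of all genes. Over all 9 libraries 3 fell at 3 h and 5 at 6 h, and of the cytochrome b5 genes 1 fell at 3 h and 2 at 6 h, against 3 and 4 in the 7 libraries. These lists also hold proteins that serve other enzymes. Among the cytochrome b5 genes, which serve desaturases of the endoplasmic reticulum, CsaV3_2G011470 had 105, 92.7 and 77.6 FPKM in HT0h, 18.4, 1.88 and 51.2 FPKM in HT3h, and 6.26, 1.27 and 12.0 FPKM in HT6h (log2 fold change -1.56 and -3.38, SE 0.44 each, limma adjusted p = 0.0339 and 0.00170). The 3 h call was lost over all 9 libraries (-2.88, limma adjusted p = 0.0773) and without HT3h_1 or any 1 of the HT0h libraries (-1.68 to -0.83, limma adjusted p = 0.0643 to 0.143). As in CsaV3_4G001680, the third library was the highest of each heated group and the second the lowest.

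Of 29 tested genes of glycerolipid assembly, 2 rose and 2 fell at 3 h and 3 rose and 3 fell at 6 h, with medians of -0.26 and -0.32, where 8.29% and 10.0% of all genes were called lower and 10.0% and 12.2% higher. The largest rise was that of CsaV3_5G033710, a CDP-alcohol phosphatidyltransferase, a family that joins head groups to phospholipids, with 4.67, 3.47 and 4.28 FPKM in HT0h, 19.3, 29.7 and 17.7 FPKM in HT3h, and 23.8, 30.2 and 24.7 FPKM in HT6h (log2 fold change 2.14 and 2.53, SE 0.17 each, limma adjusted p = 0.000374 and 0.000149). The genes named from these lists were picked after their values were seen.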

How the data were processed

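Per the submitters' processing notes, reads were handled with CASAVA 1.8, HISAT2 2.0.5, StringTie 1.3.3b and featureCounts 1.5.0-p3; no source used here states strandedness or the treatment of shared fragments. The authors deposited FPKM per gene and library. Multiplied by gene length, 100% of values were whole fragments within 0.02, and the depth term was the geometric mean of the 9 totals times each library's median-of-ratios factor (0.901 to 1.15).

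limma 3.58.1 in R 4.3.3 was fitted to log2(FPKM + 0.1) of 7 libraries with 3 times in 1 model (4 residual degrees of freedom, mean-variance trend), and tested on simulated data. Named were, per Pfam family, the called members and the 2 of highest mean. Members and lists were chosen with earlier results of these data known. No member matched RefSeq by identifier; 55 had a RefSeq gene at their position. Libraries of a time may share plants, so p-values measure the spread between these libraries. Alternatives were all 9 libraries, a replicate block, other pseudocounts, filters, scalings and limma voom on fragments, and each library left out. The exact 95% intervals cover counting error only.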

Additional observations from a re-analysis of the deposited data

How the results depend on the processing

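Among the results for single members, 1071 kept their side of the thresholds, 93 lost a call, 24 gained one and 0 calls turned to the opposite direction; some values that were not called changed sign. These totals include results without a call in the 7 libraries, among them all of 6 h against 3 h. Such results had no call to lose, so the totals do not give the share of calls that held. The desaturase count at 6 h (7) was 4 with a replicate block. The lipase count at 3 h (2) was 5 over all 9 libraries, 1 with the replicate block, 5 with the replicate block over all 9 libraries and 4 with limma voom on the fragments of all 9 libraries, a setting chosen after seeing the data. The lipase count at 6 h (6) was 1 with the replicate block, 3 with that block over all 9 libraries and 3 at a pseudocount of 1. The cause was not tested. Replicate numbers did not pair HT0h with the heated libraries: over all 9 libraries, deviations of same-numbered ones correlated between -0.229 and 0.0289. Between HT3h and HT6h, same-numbered libraries correlated at 0.039, 0.311 and 0.48, against -0.391 to 0.0635 for different numbers. What heated libraries of the same number share was not tested. Leaving out single libraries gave 3 to 6 desaturases at 3 h (3 without HT3h_1), 4 to 9 at 6 h (4 without HT0h_1 or without HT6h_3; without HT0h_3, 4 lower and 1 higher), 1 to 3 lipases at 3 h (1 without HT0h_1, HT0h_2 or HT3h_1) and 0 to 5 at 6 h (0 without HT0h_2, 3 without HT6h_1 or HT6h_3). Members called at 6 h against 3 h remained 0 throughout. The count test on recovered fragments (limma voom) called 3115 genes higher and 1382 lower at 6 h. Genes of few fragments, such as CsaV3_4G001640, could not be compared at this depth.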

Other observations

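Other lipid genes, sorted by Pfam domain, moved in the same leaves. Of 75 tested hydrolases of other families (phospholipases D and C, patatins and GDSL lipases), 15 were called higher and 9 lower at 3 h, and 13 higher and 9 lower at 6 h, with median log2 fold changes of 0.04 and 0.02. Of all genes, 10.0% were called higher and 8.29% lower at 3 h, and 12.2% higher and 10.0% lower at 6 h, shares that apply to each list here. Most of these were GDSL esterases or lipases, of which 13 of 51 rose and 6 fell at 3 h. CsaV3_3G030920 had the largest change among them at 6 h, with 2.59, 2.62 and 3.48 FPKM in HT0h, 26.4, 67.3 and 31.5 FPKM in HT3h, and 59.9, 19.6 and 47.4 FPKM in HT6h (log2 fold change 3.29 and 4.17, SE 0.19 each, limma adjusted p = 0.000117 and 4.19e-05). Every heated library was above every HT0h library.

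Of 14 tested lipoxygenases, which oxidise free polyunsaturated fatty acids, 1 fell and none rose at 3 h, and 1 fell and 3 rose at 6 h (2 over all 9 libraries). CsaV3_4G023810 fell at both times, with 142, 65.2 and 24.9 FPKM in HT0h, 0.263, 0.0180 and 7.44 FPKM in HT3h, and 0.0600, 0.0867 and 1.3 FPKM in HT6h (log2 fold change -5.21 and -7.02, SE 1.44 each, limma adjusted p = 0.0310 and 0.00911). The 3 h call was lost without HT0h_1, HT0h_2 or HT3h_1 (-5.17 to -3.03, limma adjusted p = 0.0802 to 0.150) and the 6 h call without HT6h_1 (-5.46, limma adjusted p = 0.0711). The HT0h libraries themselves differed several-fold, and no heated library reached them. CsaV3_2G006460 was called higher at 6 h alone, with 6.88, 2.14 and 1.72 FPKM in HT0h, 1.14, 5.97 and 2.26 FPKM in HT3h, and 58.2, 41.9 and 58.2 FPKM in HT6h (log2 fold change 4.25, SE 0.57, limma adjusted p = 0.00186). HT6h stood apart from the other times, which overlapped.

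Of 19 tested genes of triacylglycerol synthesis and oil bodies, 1 rose (2 over all 9 libraries) and 1 fell at 3 h and 2 rose and 1 fell at 6 h. The rises lay among the 6 acyltransferases of the LCAT and PDAT family, which move acyl chains between lipids, and none of 4 oleosins was called. CsaV3_6G002500 had 33.1, 28.2 and 27.0 FPKM in HT0h, 69.1, 102 and 42.7 FPKM in HT3h, and 76.9, 99.7 and 63.2 FPKM in HT6h, and rose at 6 h (log2 fold change 1.25, SE 0.22, limma adjusted p = 0.00520). At 3 h it was called over all 9 libraries (1.19, limma adjusted p = 0.0157) and without HT3h_3 (1.23, limma adjusted p = 0.00701), but not in the 7 libraries. The genes named here were picked after their values were seen.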
